A study of Mus musculus with 3 samples.

Results

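The set called autophagy core genes here holds genes of autophagosome formation and some relatives, a cargo receptor and a regulator. It was chosen by symbol alone and does not hold every gene of the process. Its symbols are the numbered Atg genes, Ulk1 to Ulk4, the Map1lc3 and Gabarap genes, Wipi1, Wipi2, Becn1, Sqstm1, Rb1cc1, Pik3c3, Pik3r4, Uvrag, Ambra1 and Tfeb. The rule matched 37 of the 24421 gene symbols counted. RNA was sequenced from hematopoietic stem and progenitor cells (HSPCs) of mouse bone marrow, sorted as lineage-negative cells positive for both c-Kit and Sca-1. All 3 libraries are controls from C57BL/6 mice that carried floxed Cic alleles (labelled Cicflox/flox) and had received tamoxifen, and they are numbered by the replicate in their titles. The study compared 2 mouse groups around the loss of Capicua (Cic), a transcriptional repressor, but only its controls are covered, and the other mice were not analysed here. The labels of these libraries name no Cre driver, age or sex, and do not say that each library came from its own animal, so the spread between libraries may be technical.

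Autophagy wraps parts of the cytoplasm in a double membrane and delivers them to lysosomes. A kinase complex around Ulk1 starts the process, a lipid kinase complex around Pik3c3 marks the membrane with phosphatidylinositol 3-phosphate, Atg9 and Atg2 proteins supply lipid, and linked conjugation reactions attach small ubiquitin-like proteins of the Atg8 family (LC3 and GABARAP) to the growing membrane. Blood stem cells depend on this pathway: mice that lack Atg7 or Atg12 in the blood system lose normal stem cell function, and clearance of mitochondria by autophagy has been tied to stem cell quiescence.

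RNA was amplified as double-stranded cDNA before library making, which keeps no strand, so reads from genes that overlap on opposite strands cannot be told apart. Counts were scaled to counts-per-million (CPM) by the gene total of each library, which was 30718562, 25097769 and 30032593 in libraries 1, 2 and 3. Both genes behind the sort were expressed, with means of 826 ± 71.0 CPM for Kit and 103 ± 9.50 CPM for Ly6a, the Sca-1 gene (SD, n = 3). All 8 stem and progenitor markers examined reached a mean of 1 CPM, while Cd3e had 0, 0 and 2 counts and Col3a1 and Hbb-bt had no count in any library. Other genes of the lists for further cell types were detected. At a mean of 1 CPM or more were 3 of 6 T and NK cell genes (Nkg7 at 90.1, Lck at 13.7 and Cd4 at 8.97 CPM), 4 of 4 B cell genes (Cd79b highest at 24.6 CPM) and 4 of 5 erythroid genes (Alas2 highest at 11.3 CPM). So were 2 of 4 macrophage genes (Cd68 at 28.4 and Csf1r at 26.3 CPM) and 2 of 4 stromal and endothelial genes (Lepr at 6.85 and Col1a2 at 5.62 CPM). The summed level over libraries ran from 102 to 121 CPM for the T and NK list, from 50.9 to 59.8 CPM for the B list, from 21.8 to 27.0 CPM for the erythroid list, from 44.4 to 71.3 CPM for the macrophage list and from 9.99 to 16.6 CPM for the stromal list. Granulocyte-monocyte genes differed between the libraries: the summed level of 8 such genes was 960 CPM in library 1, 1871 CPM in library 2 and 2986 CPM in library 3. Most of each sum came from Mpo, at 683, 1544 and 2403 CPM in libraries 1, 2 and 3. Within the list Mpo, Elane, Ctsg and Prtn3 were lowest in library 1, whereas Ngp, S100a8, S100a9 and Lcn2 were highest there. Library 1 also held more of the ribosomal RNA precursor Rn45s, 11.8% of its gene counts against 8.20% and 7.91% in libraries 2 and 3. The part of these differences in the results below was not tested.

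All autophagy core genes were detected. Each of the 37 reached a mean of 1 CPM, where 53.1% of all gene symbols did. Of the members, 28 (75.7%) were at 10 CPM or more in every library, against 35.9% of all gene symbols. The latter were 8760 genes, out of 12965 that averaged 1 CPM or more. Only Atg9b and Ulk4 fell under 1 CPM in a library. The median member lay at 32.8 CPM (library medians 34.4, 34.2 and 28.4 CPM), against 25.9 CPM for the 12965 genes that averaged 1 CPM or more. Per kilobase of annotated exons, the scale on which genes can be set side by side, the median of the gene means was 7.28 CPM for the members and 6.41 CPM for the same background. The members' medians in the single libraries were lower, at 6.20, 6.93 and 6.44 CPM per kilobase. Together the 37 genes took 0.175 ± 0.00645% of gene counts (SD, n = 3), and the 5 highest, Rb1cc1, Atg2b, Ulk1, Gabarapl1 and Map1lc3b, made up 38.6% of their summed CPM.

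**Figure D1:**
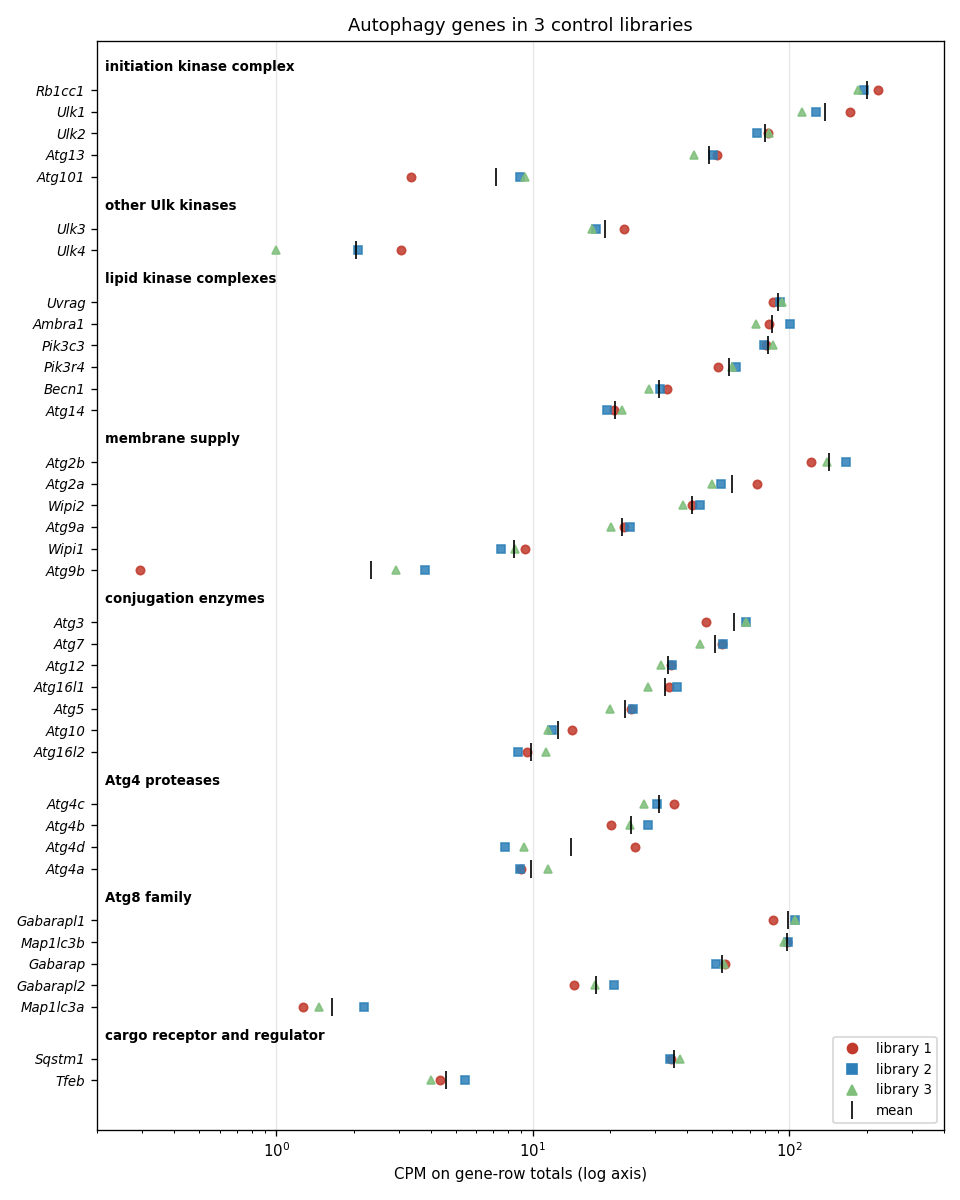
CPM of each autophagy gene in libraries 1, 2 and 3 (log axis), grouped by role, with the mean as a vertical tick. Means run from 1.64 CPM for Map1lc3a to 201 CPM for Rb1cc1, and the libraries lie far apart for Atg9b, Atg4d, Atg101 and Ulk4.

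Promoter windows of 300 bases from RefSeq (GRCm38.p6), which span the annotated start, were found for 31 of the 37 genes, as 35 windows. They were searched on both strands for CACGTG, the E-box core that Tfeb and its relatives bind, for the same core with GT before and AC after it, a longer form known from lysosomal genes, and for the forkhead site GTAAACA. The E-box core stood in the windows of 4 genes, Atg3, Atg5, Atg7 and Atg14, or 11.4% of member windows, against 7.15% of all 32851 windows. The longer motif and the forkhead site were in no member window, and in 0.326% and 3.65% of all windows. A match of letters describes the window and does not show binding. Of these windows, 3 are shown because they place the E-box of an enzyme, a conjugation partner and a lipid kinase subunit near the start that RefSeq annotates, with the E-box in capitals. The windows of Atg7 and Atg14 lie inside the gene as GENCODE annotates it. Atg3 has 2 copies, the other genes 1.
Atg3, chr16:45158579-45158878, plus strand: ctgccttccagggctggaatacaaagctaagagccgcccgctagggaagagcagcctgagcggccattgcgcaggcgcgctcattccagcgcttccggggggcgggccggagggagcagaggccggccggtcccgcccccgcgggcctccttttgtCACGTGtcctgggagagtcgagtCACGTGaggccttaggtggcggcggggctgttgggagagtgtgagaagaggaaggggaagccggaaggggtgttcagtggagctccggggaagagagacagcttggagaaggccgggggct
Atg5, chr10:44268089-44268388, plus strand: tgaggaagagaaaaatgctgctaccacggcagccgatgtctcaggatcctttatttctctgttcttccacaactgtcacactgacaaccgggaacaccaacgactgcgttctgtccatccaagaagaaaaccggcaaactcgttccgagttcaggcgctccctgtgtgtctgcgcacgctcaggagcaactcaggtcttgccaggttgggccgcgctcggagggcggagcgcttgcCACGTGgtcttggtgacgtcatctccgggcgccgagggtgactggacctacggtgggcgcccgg
Atg14, chr14:47568385-47568684, minus strand: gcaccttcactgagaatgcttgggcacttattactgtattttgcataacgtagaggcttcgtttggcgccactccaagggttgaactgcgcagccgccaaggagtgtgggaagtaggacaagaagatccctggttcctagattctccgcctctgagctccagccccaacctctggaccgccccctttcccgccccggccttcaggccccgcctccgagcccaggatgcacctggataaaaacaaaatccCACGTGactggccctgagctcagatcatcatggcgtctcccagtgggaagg

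Among the genes of the initiation complex, Rb1cc1 had the highest CPM of all members. Rb1cc1 (chromosome 1, 6206197 to 6276648, GENCODE M21 on GRCm38, the assembly of mm10), which encodes the scaffold FIP200, was at 221, 195 and 186 CPM in libraries 1, 2 and 3 and ranked 933 of all genes. The kinase gene Ulk1 (chromosome 5, 110784488 to 110810097) was at 173, 127 and 112 CPM. Library 1 was the highest of the 3 for both. Ulk2, the related kinase, was steadier at 82.6, 75.1 and 83.2 CPM. Atg13, the regulatory subunit that links the kinases to the scaffold, was at 52.4, 50.6 and 42.7 CPM. Atg101, which stabilises Atg13, was the low member of the complex at 3.35, 8.89 and 9.29 CPM, from 103, 223 and 279 counts. Its value in library 1 was 0.369 times the mean of the other two, 9.09 CPM. Per kilobase of annotated exons the order was Ulk1 at 21.1 ± 4.89, Rb1cc1 at 13.7 ± 1.25, Ulk2 at 13.4 ± 0.760, Atg13 at 11.1 ± 1.19 and Atg101 at 4.49 ± 2.08 CPM per kilobase (SD, n = 3). The long scaffold gene thus led in counts but not on this scale. Its place depends on the length used: Rb1cc1 has 14690 exon bases and a longest transcript of 7607, against 6488 and 5213 for Ulk1. The order by longest transcript was not examined. Rb1cc1 and Ulk2 differed by less than their SD.

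The other kinases named Ulk were lower. Ulk3, a kinase linked to autophagy in senescence and to Hedgehog signalling, was at 22.7, 17.6 and 17.0 CPM. Ulk4, whose kinase domain lacks residues for catalysis, had 94, 52 and 30 counts, or 3.06, 2.07 and 0.999 CPM, the lowest level of any member per kilobase at 0.240 ± 0.121 CPM per kilobase. Exons of Ulk4 share 759 bases with the opposite-strand gene Ctnnb1, which was at 358 ± 38.3 CPM. In Ulk4 library 1 was high and library 3 low, and Ctnnb1 was at 315, 389 and 370 CPM. Whether the overlap affected either count was not tested.

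Of the 6 genes of the lipid kinase complexes, Pik3c3 and Uvrag varied little and Ambra1 more. Pik3c3, the catalytic subunit Vps34, was at 80.9, 79.9 and 86.3 CPM. Uvrag, the subunit of the complex that acts on endosomes and late autophagosomes, was at 86.7, 91.9 and 93.2 CPM. Their log2 ranges over the libraries, 0.11 and 0.10 in log2(CPM + 0.5), were the smallest among members at 5 CPM or more after that of Map1lc3b. Pik3r4, the kinase-like scaffold Vps15, averaged 58.0 ± 4.89 CPM. Ambra1, which promotes Becn1 activity, was at 83.1, 100.1 and 74.0 CPM, a log2 range of 0.43. The other subunits were lower: Becn1, the regulatory core subunit, averaged 31.0 ± 2.45 CPM, and Atg14, which directs the complex to sites of autophagosome formation, 20.8 ± 1.47 CPM (SD, n = 3 for each). Per kilobase Pik3c3 stood at 18.4 ± 0.769, Uvrag at 10.03 ± 0.381, Atg14 at 4.82 ± 0.341 and Becn1 at 4.38 ± 0.347 CPM per kilobase. Thus Uvrag was more abundant than Atg14, its alternative partner in the complex, in every library on both scales. Between Atg14 and Becn1 the order turned with the scale. Becn1 was the higher in CPM in every library. Atg14 was the higher per kilobase in every library, at 4.81, 4.48 and 5.16 against 4.70, 4.43 and 4.02 in libraries 1, 2 and 3. The order per kilobase rests on exon lengths of 4322 bases for Atg14 and 7065 for Becn1. Their longest transcripts have 3729 and 4365 bases, and levels by that length were not compared. Exons of Becn1 overlap those of the opposite-strand gene Cntd1 over 43.9% of their length, so its count is uncertain. Those of Uvrag overlap the opposite-strand gene Gm45187, not among the counted symbols, over 17.6% of their length.

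In the membrane supply group, 1 paralogue of each pair carried most of the counts. Atg2b (chromosome 12, 105616136 to 105685211), a lipid transfer protein gene, was at 121, 166 and 141 CPM. Atg2a was at 75.0, 53.9 and 50.05 CPM. Library 1 was the lowest for Atg2b and the highest for Atg2a, so the pair stood closest there. Atg9a, which encodes the widely expressed lipid scramblase of Atg9 vesicles, was at 22.6, 23.9 and 20.2 CPM. Exons of Atg9a overlap the same-strand gene Gm29253, not among the counted symbols, over 31.8% of their length. Atg9b had 9, 95 and 88 counts, or 0.293, 3.79 and 2.93 CPM, the widest spread of any member, with library 1 far below the others. Its exons overlap the endothelial gene Nos3 on the opposite strand over 7.45% of their length, and Nos3 itself had 3, 7 and 0 counts. Wipi2, which binds phosphatidylinositol 3-phosphate and recruits Atg16l1, was at 41.9, 44.8 and 38.4 CPM, and its relative Wipi1 at 9.34, 7.49 and 8.49 CPM.

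The 7 genes of the conjugation reactions ran from 9.84 CPM for Atg16l2 to 60.8 CPM for Atg3. Atg3, the E2-like enzyme that attaches Atg8 proteins to lipid, was at 47.2, 67.7 and 67.6 CPM, lowest in library 1. Atg7, the E1-like enzyme of both reactions, averaged 51.5 ± 5.71 CPM. Atg10, the E2-like enzyme for Atg12, was lower at 12.5 ± 1.45 CPM. Of the conjugate they build, Atg12 averaged 33.7 ± 1.86 CPM and its acceptor Atg5 22.9 ± 2.46 CPM (SD, n = 3 for each). Atg16l1, which positions the conjugate at the membrane, was at 34.0, 36.4 and 28.1 CPM. Atg16l2 was at 9.51, 8.73 and 11.3 CPM. Per kilobase the group ran from Atg3 at 19.3 ± 3.75, through Atg5 at 9.72 ± 1.05, Atg7 at 7.39 ± 0.820, Atg10 at 7.28 ± 0.843, Atg12 at 4.36 ± 0.242 and Atg16l1 at 3.41 ± 0.442, to Atg16l2 at 1.16 ± 0.155 CPM per kilobase. Atg7 and Atg10 differed by less than their SD per kilobase, while in CPM Atg7 was the higher in every library. This order and tie rest on the summed exons and may change with the length used. Exon bases and longest transcript were 6968 and 3895 for Atg7, 1718 and 1583 for Atg10, and 9628 and 3751 for Atg16l1. The full order by longest transcript was not examined.

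The Atg4 proteases trim Atg8 proteins before conjugation and release them from membranes. Atg4c was at 35.4, 30.4 and 27.0 CPM. Atg4b, the most active of the family in biochemical work, was at 20.2, 28.1 and 23.8 CPM. Atg4a was at 8.98, 8.93 and 11.5 CPM, with 51.2% of its 50-base sequence words also present in other genes, chiefly its copy Atg4a-ps, so its count is uncertain. Atg4d (chromosome 9, 21265293 to 21277772) was at 25.1, 7.77 and 9.19 CPM, from 771, 195 and 276 counts. Library 1 was thus 2.96 times the mean of the other two, which was 8.48 CPM. Exons of Atg4d overlap the opposite-strand gene Kri1 over 19.3% of their length, and Kri1 was at 36.3, 30.2 and 23.7 CPM. Whether the overlap affected either count was not tested.

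The Atg8 family was led by Gabarapl1 and Map1lc3b in counts and by Gabarapl1 and Gabarap per length. Gabarapl1 (chromosome 6, 129533160 to 129542346) was at 86.1, 105 and 105 CPM. Map1lc3b (chromosome 8, 121590361 to 121598760), the gene of the LC3B protein commonly used to follow autophagy, was at 98.2, 99.1 and 95.4 CPM. With a log2 range of 0.05 and a coefficient of variation of 1.94%, it was the steadiest member. Gabarap was at 56.2, 51.5 and 55.5 CPM. Gabarapl2, also known as GATE-16, was at 14.4, 20.7 and 17.5 CPM, lowest in library 1. Map1lc3a, the LC3A gene, had 39, 55 and 44 counts, or 1.27, 2.19 and 1.47 CPM, the lowest mean CPM of all 37 genes.

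Per kilobase of exons, Gabarapl1 was the highest of all members at 49.0 ± 5.36 CPM per kilobase, at percentile 95.0 of the genes that averaged 1 CPM or more. Gabarap followed at 29.5 ± 1.37, Map1lc3b at 13.0 ± 0.252, Gabarapl2 at 7.55 ± 1.35 and Map1lc3a at 1.39 ± 0.411 CPM per kilobase (SD, n = 3). Of the summed level of the 5 genes, Gabarapl1 made up 48.7 ± 2.58%, Gabarap 29.5 ± 2.87%, Map1lc3b 13.0 ± 0.889%, Gabarapl2 7.49 ± 0.994% and Map1lc3a 1.38 ± 0.355%. The libraries of neighbours in this order did not overlap per kilobase. Divided by the longest transcript instead, Gabarapl1 made up 41.6 ± 2.55%, Gabarap 31.1 ± 2.78% and Map1lc3b 18.2 ± 1.09%. Gabarapl1 exons overlap an opposite-strand row, 1700101I11Rik, which had 0, 11 and 16 counts, and 12.2% of the sequence words of Gabarapl2 and 5.89% of those of Map1lc3b occur at other loci, mainly processed pseudogenes.

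**Figure D2:**
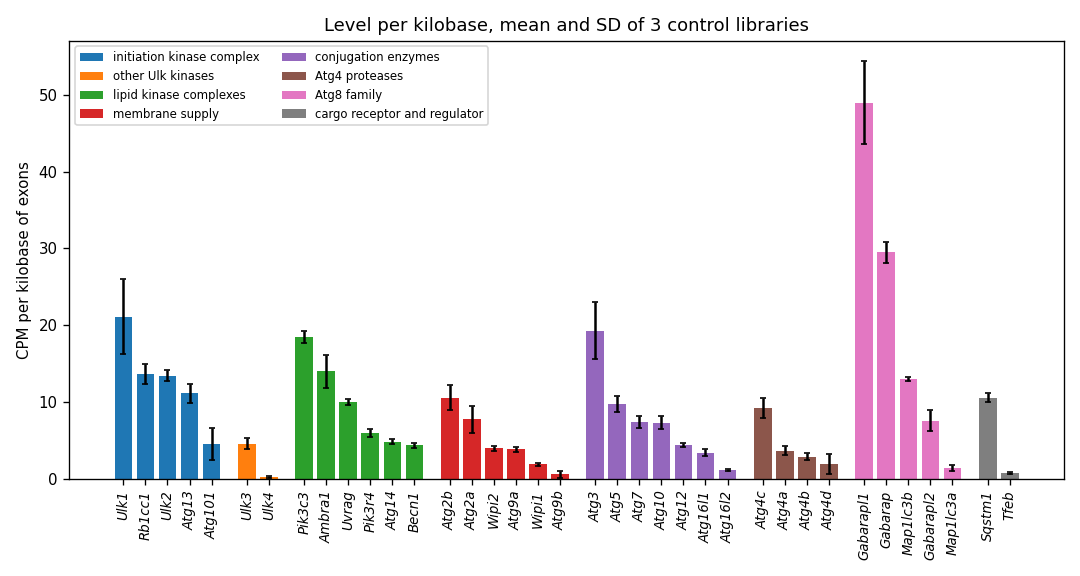
Mean CPM per kilobase of annotated exons with SD over the 3 control libraries (bars start at 0), by role and in falling order within each role. Gabarapl1 at 49.0 and Gabarap at 29.5 CPM per kilobase stand above all other members, and Ulk4 at 0.240 is the lowest.

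Among the receptor and regulator genes, Sqstm1, which encodes the cargo receptor p62, was at 34.4, 34.2 and 37.6 CPM. Its exons overlap an opposite-strand gene over 17.3% of their length. Tfeb, a transcription factor that switches on lysosomal and autophagy genes when mTORC1 is inactive, had 133, 137 and 120 counts, or 4.33, 5.46 and 4.00 CPM. It lay at percentile 10.4 per kilobase, on 5669 summed exon bases. Its longest transcript has 2342 bases, and levels by that length were not compared, for Tfeb or for its family. Tfeb was also the lowest of the 4 factors of its family: per kilobase Tfec was at 6.84, Tfe3 at 2.30, Mitf at 1.23 and Tfeb at 0.810 CPM per kilobase, and the CPM were 38.2, 21.3, 7.62 and 4.59.

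Differences between paralogues were taken within each library, as log2(CPM per kilobase + 0.5) of the first gene minus the second, over 14 pairs. In 11 pairs the sign was the same in all 3 libraries, with an exact two-sided sign-flip p of 0.25 each. No smaller p is possible with 3 libraries, so the design could call none of them, and the value adjusted by Benjamini-Hochberg over the 14 pairs was 0.318. Map1lc3b exceeded Map1lc3a by 2.86 (SD 0.29), Ulk3 exceeded Ulk4 by 2.78 (SD 0.11) and Ulk1 exceeded Ulk3 by 2.07 (SD 0.12). Atg9a exceeded Atg9b by 2.10 (SD 0.73), and by 1.68 without library 1. Gabarapl2 fell below Gabarapl1 by a mean difference of -2.63 (SD 0.13) and below Gabarap by -1.91 (SD 0.31), and Gabarap minus Gabarapl1 was -0.72 (SD 0.21). Smaller differences with 1 sign were Atg16l1 over Atg16l2 at 1.23 (SD 0.30), Wipi2 over Wipi1 at 0.89 (SD 0.20) and Ulk1 over Ulk2 at 0.61 (SD 0.31), while Atg4b minus Atg4c was -1.52 (SD 0.35). With the longest transcript as the length, the difference was 2.19 for the Atg16l pair, 1.502 for the Wipi pair, 3.63 for the Map1lc3 pair and -0.72 for Atg4b minus Atg4c.

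The remaining 3 pairs did not keep their sign, each with an exact p of 0.5. Atg2a minus Atg2b was 0.11, -0.77 and -0.64 in libraries 1, 2 and 3. Atg4b minus Atg4d was -0.43, 1.31 and 0.94. For both pairs library 1 was the one with the other sign, and without it the means were -0.71 and 1.12. Atg4b minus Atg4a was -0.40, 0.02 and -0.51, and the difference turned to 0.33 with the longest transcript as the length, so this pair has no settled order.

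**Figure D3:**
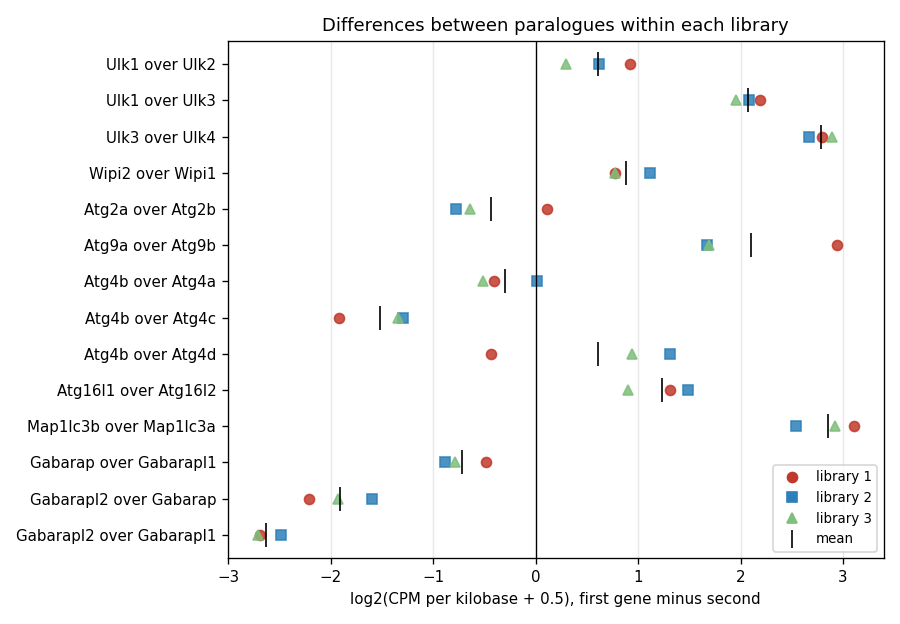
Difference in log2(CPM per kilobase + 0.5) between the first and the second gene of 14 paralogue pairs, with a symbol for each library and a tick for the mean. Of the pairs, 11 lie on 1 side of 0 in all 3 libraries, and Atg2a over Atg2b, Atg4b over Atg4a and Atg4b over Atg4d cross it.

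How far the libraries differed was tested on all genes that averaged 1 CPM or more. A chi-square test of the 3 counts against the library totals found 31 of the 37 members (83.8%) to differ beyond read-counting noise at a Benjamini-Hochberg adjusted p under 0.05, against 82.6% of all 12965 genes, so the members' share was near the background. The 6 that did not pass were Atg14, Wipi1, Atg12, Map1lc3b, Gabarap and Sqstm1. Amplified reads are not independent molecules, so this test measures departure from counting noise only. Without library 1, 20 members (54.1%) and 51.4% of all genes passed. With TMM or DESeq2 size factors in place of the totals, 34 members (91.9%) and 82.3% of all genes passed.

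A second test asked whether a gene spread more than genes of its abundance, by an F test of its quasi-dispersion against the trend of edgeR's quasi-likelihood fit. None of the 37 members passed after Benjamini-Hochberg adjustment, against 0.00771% of all genes tested (1 of 12965, the granule protease gene Elane). DESeq2 marked none of them as a dispersion outlier either, and 30 of all genes. Atg4d, at 2.96 times the mean of the others in library 1, had an adjusted p of 0.935 in the F test. Not passing therefore does not show a steady level. At an unadjusted p under 0.05 there were 5 members (13.5%), against 4.57% of all genes: Atg4d, Ulk1, Atg9b, Atg2a and Atg101. In each of these 5 genes, picked for their spread over the same 3 libraries, library 1 stood apart from libraries 2 and 3. It was the highest library for Atg4d, Ulk1 and Atg2a and the lowest for Atg9b and Atg101. Without library 1, only 1 member (2.7%) and 5.38% of all genes had an unadjusted p under 0.05. A distant library 1 was not particular to the members. It lay farther from the mean of libraries 2 and 3 than these from each other for 51.4% of members and 58.7% of all genes. The common biological coefficient of variation that edgeR estimated over all genes was 20.7%, and 15.1% without library 1.

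The members went both ways in library 1. Their median log2(CPM + 0.5) in library 1 lay 0.01 above the mean of libraries 2 and 3, with 20 of 37 genes higher, and over all 12965 genes the median was -0.05. Without library 3 the members' shift was -0.0047, against -0.06 for all genes, and without library 2 it was 0.10, against -0.03. Library 1 was the lowest of the 3 for 27.0% of members and 44.3% of all genes. The median shift of library 3 against the mean of the other two was larger, at -0.14 for the members and 0.00 for all genes, with 16 of 37 members higher. The median log2 range was 0.30 for the members and 0.36 for all genes. A range above 1 was found for 4 members, Atg9b, Atg4d, Atg101 and Ulk4, or 10.8% against 8.70% of all genes, and a range under 0.5 for 28 members, or 75.7% against 67.2%. The summed CPM of the 5 initiation complex genes was 532, 456 and 433 in libraries 1, 2 and 3, and that of the 5 Atg8 genes 256, 278 and 275; a difference between these groups was not tested. The shift of library 1 had a Spearman rho of -0.05 with the GC content of the transcripts and of 0.22 with exon length over the 37 genes, which share the same 3 libraries, against -0.02 and 0.10 over all genes with a length.

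**Figure D4:**
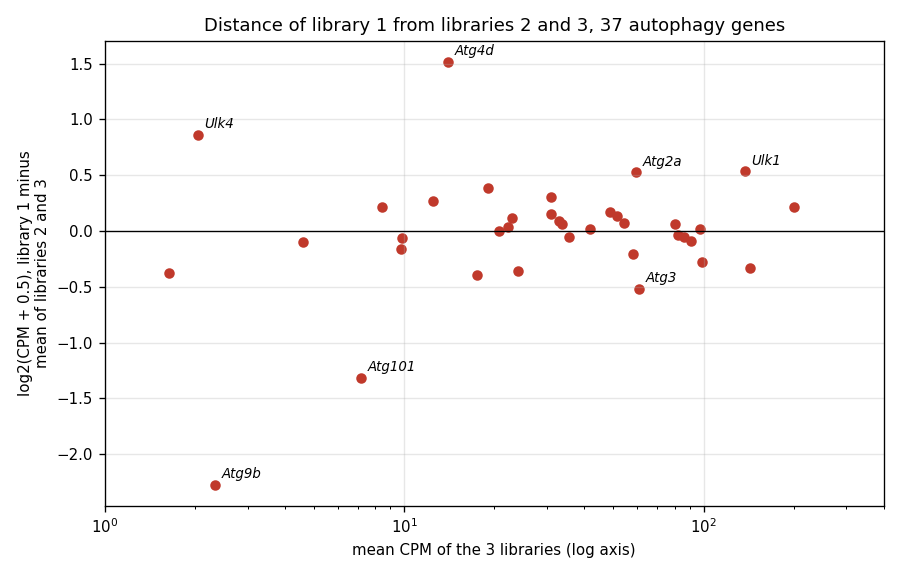
Log2(CPM + 0.5) in library 1 minus the mean of libraries 2 and 3 for each of the 37 autophagy genes, against the mean CPM (log axis). Most genes lie near 0, with Atg4d high and Atg9b and Atg101 low.

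The wider pathway was expressed as broadly. Of 85 further genes in 8 lists, 82 reached a mean of 1 CPM, and 69 of these 82 passed the chi-square test, a share near the 82.6% of all genes. Becn2, a paralogue of Becn1, had no count in any library, and the cargo receptor gene Calcoco2 had 1, 0 and 1 counts. Stbd1, a glycogen receptor gene and the other one under 1 CPM, averaged 0.787 CPM. Among the 10 cargo receptors, Tax1bp1 was at 441 CPM, the ferritin receptor gene Ncoa4 at 436 CPM and Fam134b (Retreg1), a receptor for the endoplasmic reticulum, at 131 CPM, all above Sqstm1. Per kilobase Ncoa4 was at 46.5, Tax1bp1 at 44.1 and Fam134b at 31.5 CPM per kilobase, and Sqstm1 at 10.6.

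Of the 9 mitophagy genes all reached 1 CPM. Bnip3l, a mitochondrial receptor also called Nix, led them at 156 CPM, followed in CPM by Phb2 at 68.9 and Bcl2l13 at 68.8. The order changed per kilobase: Bnip3l was at 40.4, Phb2 at 18.5, Pink1 at 17.1, Fundc1 at 16.5 and Bcl2l13 at 7.57 CPM per kilobase. Park2, the ubiquitin ligase Parkin, was the lowest at 1.76 CPM. In the nutrient-sensing list of 14 genes, Mtor was at 127, 125 and 127 CPM. The AMP-activated kinase gene Prkaa1 averaged 74.9 CPM, the mTOR inhibitor gene Deptor 73.0 CPM and Akt1s1, the lowest in CPM, 11.2 CPM. Divided by exon length, Prkaa1 was at 16.1, Mtor at 12.5, Deptor at 8.22 and Akt1s1 at 3.64 CPM per kilobase. Prkaa2 was then the lowest at 2.65. Of the lipid kinase regulators, Bcl2, which binds Becn1, was at 291 CPM, Vmp1 at 266 CPM and Sh3glb1 at 188 CPM. Vmp1 was the highest of these per kilobase at 68.9, with Bcl2 at 31.8 and Sh3glb1 at 25.2 CPM per kilobase.

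Genes that act at the lysosome were the highest list per length, with a median of 16.8 CPM per kilobase over 18 genes, against 7.28 for the core genes. Lamp2 was at 267 CPM, the protease gene Ctsd at 215 CPM and Psap at 176 CPM, with Neu1 lowest at 9.39 CPM. Of the 12 fusion genes, the small GTPase gene Rab7 was at 504 CPM and the tethering subunit gene Vps39 at 115 CPM. The SNARE gene Vamp8 was at 92.6 CPM and Tecpr1, the lowest, at 7.16 CPM. On the length scale Rab7 was at 193, Vamp8 at 40.1 and Vps39 at 13.4 CPM per kilobase. The other Wipi relatives, Wdr45 and Wdr45b, were at 34.3 and 27.3 CPM. Among the transcriptional regulators, Foxo3, which maintains autophagy genes in blood stem cells, was at 174 CPM and Flcn at 52.4 CPM, with Mitf lowest.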

How the data were processed

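The members and gene lists were chosen with earlier results of these data known. The deposited values are raw counts of reads for each gene, which the authors had not normalized. Per the submitters' processing notes the build was mm10 and the tools included HTSeq, DESeq2 and TopHat2 2.0.9, with no role stated. Neither a gene model nor a strand option for counting is named there. Spike-in rows and the category rows (no feature, ambiguous, not unique) were left out of library sizes; genes held 38.2%, 34.1% and 40.0% of all counts in libraries 1, 2 and 3. Reads aligned to several places form a category of their own, so near-identical genes can be undercounted.

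Counts were scaled to CPM on gene totals; logs used a pseudocount of 0.5, which understates differences of low genes. Exon lengths (union of exons), positions, overlaps and shared 50-base words came from GENCODE M21 (98.5% of symbols matched by name or RefSeq synonym). Of the members, 29 share under 1% of their words with other loci, and 13 have exons that overlap another gene. Every gene that averaged 1 CPM or more entered a chi-square test (2 degrees of freedom) and an F test of its quasi-dispersion in edgeR (robust quasi-likelihood fit with an intercept, TMM). Both were also run on simulated counts, and the outcome is not given here. The simulated counts for the chi-square test held only counting noise besides planted changes, unlike the real libraries. Paralogues were compared by an exact sign-flip permutation test. With 1 group, no contrast was possible. The naming rule took the Atg8 genes, the paralogue pairs, the highest gene of each role, the 5 widest and 3 steadiest genes at 5 CPM or more, and the 3 highest and the lowest of each further list; other members were given to account for all. One gene of the transcriptional list is not reported here. Alternatives were TMM and DESeq2 size factors, other pseudocounts and minima, other test settings, transcript lengths and leaving out each library. Software was R 4.3.3, edgeR 4.0.16, DESeq2 1.42.0, Python 3.11.15, pandas 2.3.3 and SciPy 1.17.1.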

Additional observations from a re-analysis of the deposited data

Results flagged for a closer look

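The files hold 92 rows for ERCC spike-ins, synthetic RNAs that the labels do not mention and that no comparison above uses. They drew 455900 counts in library 1, 239355 in library 2 and 174913 in library 3, equal to 1.48%, 0.954% and 0.582% of the gene counts, and 74, 75 and 73 of them were detected. No source used here gives the amount added to each library, and no level was scaled by them.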

How the results depend on the processing

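No contrast between groups, paired or not, was possible because the series has a single group here. Only the paralogue differences were paired, within each library. The count of members at 1 CPM or more stayed between 33 (minimum of 5 CPM) and 37, and the median level between 31.2 and 34.3 CPM. The median per kilobase was 9.36 with the longest transcript as length and 6.76 to 7.56 with 1 library left out. The median log2 range was 0.34 with TMM and 0.33 with DESeq2 size factors, and 0.18 to 0.24 with 2 libraries, where fewer values span it. Leaving out 1 library gave 20 (without library 1) to 28 members (without library 2) past the chi-square test, and 21 without library 3, against 51.4%, 67.3% and 64.4% of all genes without libraries 1, 2 and 3. The variability test called no member under any setting run. Atg4b minus Atg4a turned to 1.25 in CPM without length and to 0.33 with the longest transcript. The shift of library 1 was 0.06 with TMM and 0.07 with DESeq2 size factors, where all genes had 0.0010 and 0.0061, and from -0.0047 to 0.10 with library 3 or library 2 left out. Under the other settings 11 to 14 paralogue pairs kept 1 sign. Depth limits the lowest genes most: Atg9b rests on 9 counts in library 1.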
